A study of Saccharomyces cerevisiae with 24 samples.

Results

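The 9 genes described here make, break down or supply the precursors of trehalose in baker's yeast, Saccharomyces cerevisiae. They were chosen by name: TPS1 (YBR126C), TPS2 (YDR074W), TPS3 (YMR261C), TSL1 (YML100W), NTH1 (YDR001C), NTH2 (YBR001C), ATH1 (YPR026W), PGM2 (YMR105C) and UGP1 (YKL035W). All 9 were found among the 5449 yeast genes measured, each with 1 probe set. Cells of strain S288C, a common laboratory strain, were grown at 28 °C in synthetic SD medium. They were then moved to 37 °C, here called heat, or to 10 °C, called cold, while the control stayed at 28 °C. The labels do not say how many cultures each series drew on. Each series was sampled at 0, 15, 30 and 60 min and at 2, 4, 8 and 24 h, with 1 array at each time, 24 arrays in all. All values are log2 levels of the RMA summary that the authors deposited, so a difference of 1 is a doubling.

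Trehalose is a sugar of paired glucose units that protects proteins and membranes of yeast during heat, drying and starvation. Tps1 joins glucose 6-phosphate to UDP-glucose, Tps2 removes the phosphate, and Tsl1 and Tps3 are regulatory subunits of the same complex. Nth1 and its paralog Nth2 are neutral trehalases of the cytosol, and Ath1 is the acid trehalase that acts on trehalose outside the cytosol. Pgm2, the major phosphoglucomutase, and Ugp1, the UDP-glucose pyrophosphorylase, supply UDP-glucose to trehalose and glycogen synthesis. Trehalose itself was not measured in these files, and a transcript level says nothing of the phosphorylation that sets trehalase activity.

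No time point was repeated. The 3 arrays at 15 to 60 min and the 3 arrays at 2 to 8 h of a culture therefore stand in for replicates, and p-values cover the spread between times, not between independent cultures. Array medians lay between 10.69 and 10.79. Fewer transcripts per cell and fewer cells cannot be told apart from such values. The strain is of the alpha mating type, and of its marker genes STE3 lay between 11.0 and 13.9 over all arrays, MF(ALPHA)1 between 8.5 and 14.5 and MF(ALPHA)2 between 8.0 and 14.3. Of the a-specific genes, STE2 lay between 7.4 and 10.9, MFA2 between 6.7 and 10.8 and MFA1 between 7.3 and 13.1. These ranges overlap, and levels of different probe sets cannot be ranked, so they do not settle the mating type.

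The starting arrays limit what can be read from the heat series. Its RNA went through a Roche amplification kit in addition to the Ambion kit used for the cold and control samples, per the labels' protocols. Across all genes the heat array at 0 min correlated with the control array at r = 0.703, whereas the cold array did so at r = 0.990. At 0 min NTH1 stood at 7.31 in the heat series, against 12.41 in the cold series and 12.52 in the control. That heat difference of -5.21 was the 63rd lowest of all 5449 genes. It left NTH1 in the heat series close to the dim bound of 6.53, under which a level resembles that of probe sets with no gene in the S. cerevisiae table. The other 8 genes differed from the control by between -0.83 (TSL1) and 1.06 (PGM2) on the heat array, and by between -0.41 (ATH1) and -0.09 (TPS2) on the cold array. Kit and heat series cannot be told apart. Changes are therefore given from the 0 min array of the same series, and sizes for NTH1 in heat come from another signal range than in the other cultures.

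**Figure D1:**
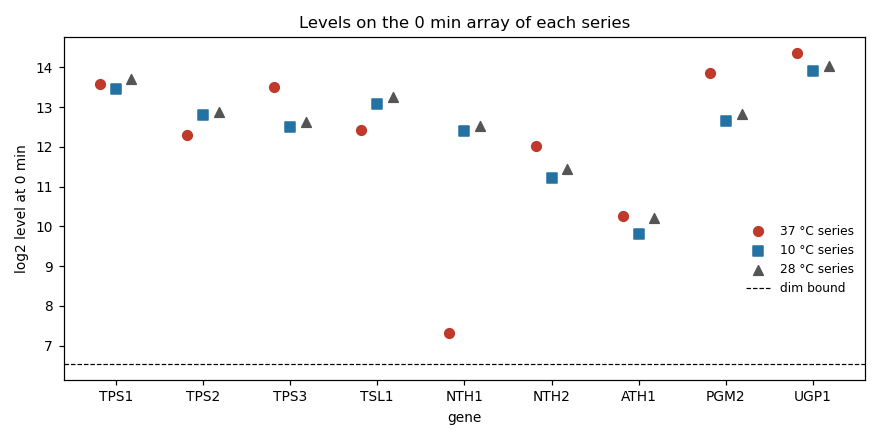
Log2 level of the 9 genes (x axis) on the 0 min array of the 37 °C, 10 °C and 28 °C series, 1 array per point. The dashed line is the dim bound of 6.53. NTH1 alone is far apart, at 7.31 in the 37 °C series and above 12 in the other series.

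All 9 genes lay below their start during the first hour at 10 °C, on each of the 3 arrays, and furthest below it in TSL1 and PGM2. In the cold TSL1 stood at 13.09 at 0 min, 11.00 at 15 min, 9.42 at 30 min and 9.50 at 60 min. The control stood at 13.25, 13.42, 13.61 and 13.42 at the same times. The cold arrays from 15 to 60 min were thus below every control array. PGM2 stood at 12.66, 11.43, 10.04 and 9.66 in the cold, against 12.82, 12.99, 13.14 and 13.21 in the control. It was lowest at 60 min, when its change from the start was -3.00. TPS2 stood at 12.80, 10.91, 10.47 and 11.07 in the cold, against 12.88, 13.09, 13.18 and 13.09 in the control. The synthase gene TPS1 had a shallower course, with 13.47, 12.66, 12.18 and 12.48 in the cold and 13.72, 13.87, 13.93 and 13.83 in the control.

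The trehalase genes lay below their start together with the synthesis genes. ATH1 stood at 9.80, 8.59, 7.94 and 7.85 in the cold, against 10.21, 10.42, 10.72 and 10.91 in the control. NTH2 stood at 11.22, 10.27, 10.05 and 9.91 in the cold, against 11.45, 11.50, 11.64 and 11.69 in the control. NTH1 stood at 12.41, 11.85, 11.46 and 11.44 in the cold, against 12.52, 12.57, 12.73 and 12.73 in the control. In each of these 3 genes the cold arrays from 15 to 60 min lay below all control arrays. UGP1 reached its lowest change at 30 min (-1.06), as did the 4 genes of the synthase complex. The 3 trehalase genes and PGM2 were lowest at 60 min. TPS3 had the smallest change of the synthase complex, -0.68 at 30 min.

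Set against the control and the 0 min difference, the early cold change of TSL1 was -3.35 ± 0.93 (SE of the fit, 3 arrays per window), the 7th lowest of 5449 genes. PGM2 stood at -2.58 ± 0.82, TPS2 at -2.22 ± 0.46, ATH1 at -2.15 ± 0.77, NTH2 at -1.30 ± 0.42, TPS1 at -1.19 ± 0.50, UGP1 at -0.99 ± 0.42, NTH1 at -0.98 ± 0.58 and TPS3 at -0.61 ± 0.35. The median was -1.30, against 0.01 over all genes. By limma's test with Benjamini-Hochberg adjustment over all genes, 0 of the 9 passed a threshold of 0.05, as did 0 of 5449 genes (0% called). At an unadjusted p under 0.05, 7 of the 9 and 519 of all genes were counted. The single 0 min array of each culture widens these errors. Without its subtraction all 9 were lower in the cold than in the control by limma, where 16.5% of all genes were called lower. Their differences then ran from -3.51 (TSL1, adjusted p = 0.00039) to -0.75 (TPS3, adjusted p = 0.0074). That value includes the cold culture's own difference from the control at 0 min, which was negative for all 9.

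**Figure D2:**
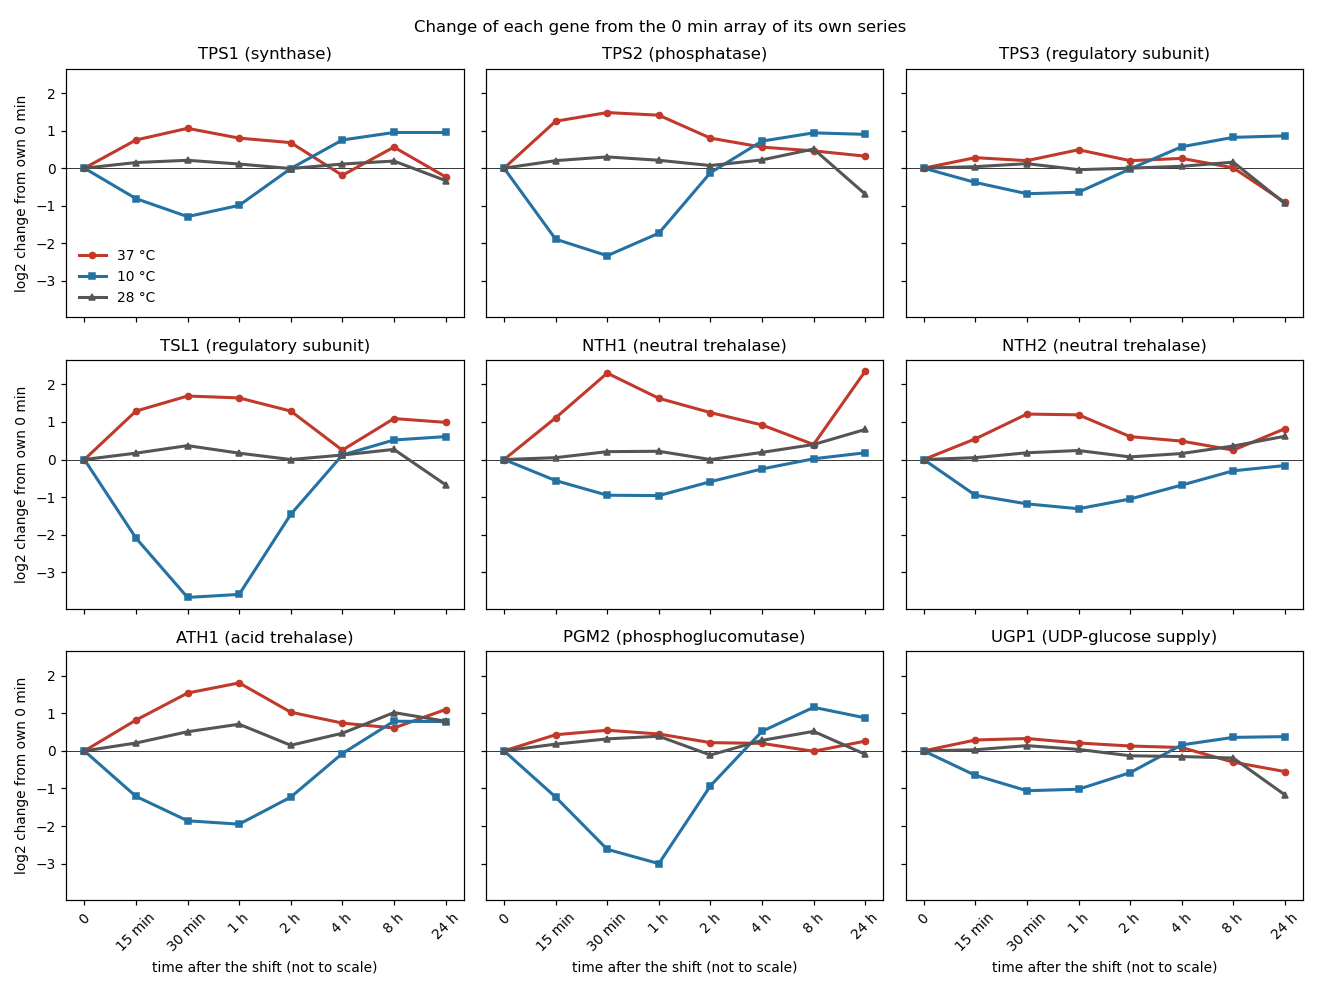
Log2 change of each gene from the 0 min array of its own series (y axis) by time (x axis, not to scale) at 37 °C, 10 °C and 28 °C, 1 array per point. During the first hour all 9 genes lie above 0 at 37 °C and below 0 at 10 °C, down to -3.67 for TSL1 and -3.00 for PGM2. At 28 °C they also lie above 0 in that hour, by less than at 37 °C, except TPS3 at 60 min (-0.04). At 24 h NTH1 stands at 2.35 at 37 °C, and UGP1 at -1.17 at 28 °C.

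During the first hour at 37 °C all 9 genes lay above their start on each array. In the unshifted control 9, 9 and 8 of the 9 also lay above their start at 15, 30 and 60 min, each by less than in heat. In heat TSL1 stood at 12.42 at 0 min and at 13.71, 14.12 and 14.07 at 15, 30 and 60 min. TPS2 stood at 12.29, 13.54, 13.78 and 13.70, and TPS1 at 13.59, 14.33, 14.64 and 14.38. Most of the 30 min change of these genes was present at 15 min. NTH1 stood at 7.31, 8.42, 9.61 and 8.94, NTH2 at 12.03, 12.58, 13.24 and 13.22, and ATH1 at 10.27, 11.09, 11.80 and 12.08. ATH1 was highest at 60 min, with a change of 1.81, of which the control culture showed 0.71 at that time. PGM2 and UGP1 had changes of at most 0.55 and 0.33, and TPS3 of at most 0.49.

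Relative to the control, the early heat changes were 1.52 ± 0.58 for NTH1, 1.30 ± 0.93 for TSL1, 1.14 ± 0.46 for TPS2, 0.91 ± 0.77 for ATH1, 0.83 ± 0.42 for NTH2 and 0.71 ± 0.50 for TPS1. TPS3 stood at 0.28 ± 0.35, UGP1 at 0.21 ± 0.42 and PGM2 at 0.18 ± 0.82. The median was 0.83, against 0.05 over all genes. By limma 0 of the 9 passed, where 1 of all genes did (0.0184%). At an unadjusted p under 0.05, NTH1, TPS2 and 455 of all genes were counted. Taken from the heat culture's own start alone, with no control subtracted, NTH1 (1.68, adjusted p = 0.023), TPS2 (1.38, adjusted p = 0.025) and NTH2 (0.99, adjusted p = 0.048) passed by limma. The share of all genes that passed in that fit is not given here, so these calls cannot be set against it.

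The early responses to heat and to cold differed in 7 of the 9 genes. Heat minus cold, each from its own start, came to 4.66 ± 0.93 for TSL1 (limma adjusted p = 0.012), a ratio of 25.2-fold and the 19th highest difference of all genes. It came to 3.36 ± 0.46 for TPS2 (adjusted p = 0.0042), 3.06 ± 0.77 for ATH1 (0.024), 2.75 ± 0.82 for PGM2 (0.043), 2.50 ± 0.58 for NTH1 (0.018), 2.13 ± 0.42 for NTH2 (0.011) and 1.90 ± 0.50 for TPS1 (0.028). UGP1 (1.19 ± 0.42, adjusted p = 0.073) and TPS3 (0.89 ± 0.35, adjusted p = 0.101) did not pass. Over all genes 7.82% were called higher in this comparison. Both synthesis and breakdown genes were thus among those called, 3 of 4 in the synthase complex and 3 of 3 among the trehalases. The calls depended on single times, since only TPS2 passed without the 30 min arrays, TPS2, TSL1 and NTH2 without those at 60 min, and 5 genes without those at 4 h. For NTH1 the sign turns if the 0 min arrays are left out of account, because of its low start in the heat series (-2.60).

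Between 2 and 8 h at 10 °C the synthase complex and the supply genes came back up. By 8 h all of them stood above their starting level, as did ATH1 (0.79) and, barely, NTH1 (0.02). TPS1 stood at 13.46, 14.23 and 14.42 at 2, 4 and 8 h, against 12.66, 12.18 and 12.48 at 15, 30 and 60 min. TPS2 stood at 12.67, 13.52 and 13.74 at the later times, against 10.91, 10.47 and 11.07 at the earlier ones. TSL1 stood at 11.63, 13.22 and 13.61, against 11.00, 9.42 and 9.50. In each gene the lowest later array was above the highest earlier one. PGM2 stood at 11.73, 13.18 and 13.82, against 11.43, 10.04 and 9.66, and reached 1.16 above its start at 8 h. TPS3 stood at 12.47, 13.06 and 13.31, against 12.11, 11.81 and 11.85, and UGP1 at 13.32, 14.07 and 14.27, against 13.25, 12.84 and 12.89.

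None of the 3 trehalase genes passed the test of a return. NTH2 stood at 10.17, 10.54 and 10.92 at 2, 4 and 8 h, against 10.27, 10.05 and 9.91 at 15, 30 and 60 min. It was still 0.30 below its start at 8 h and 0.16 below it at 24 h, the 1 gene of the 9 that did not regain its 0 min level in the cold. NTH1 stood at 11.82, 12.16 and 12.43, against 11.85, 11.46 and 11.44. For both genes the windows overlapped. ATH1, the acid trehalase, stood at 8.57, 9.73 and 10.59, against 8.59, 7.94 and 7.85, and was 0.79 above its start at 8 h. Its windows overlapped as well, since its 2 h array lay just below that at 15 min.

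The later window relative to the early one, with the control subtracted and without use of the 0 min arrays, gave 2.95 ± 0.66 for TSL1 (limma adjusted p = 0.011). It gave 2.60 ± 0.58 for PGM2 (0.011), 2.47 ± 0.32 for TPS2 (0.0026), 1.65 ± 0.35 for TPS1 (0.0090), 1.12 ± 0.30 for UGP1 (0.021) and 1.00 ± 0.25 for TPS3 (0.016). All of these 6 genes rose, where 13.2% of all genes were called higher. ATH1 (1.43 ± 0.54, adjusted p = 0.073), NTH1 (0.51 ± 0.41, 0.373) and NTH2 (0.43 ± 0.30, 0.309) did not pass. The 95% intervals reached up to 1.41 for NTH1 and 1.08 for NTH2, above the estimate for TPS3. A difference between these genes was not tested. Without the 30 min arrays only TPS2 passed, without those at 4 h TPS1 and TPS2, without those at 15 min TPS1, TPS2, TSL1 and PGM2, and without those at 60 min all but UGP1.

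Averaged over 2 to 8 h and measured from the starts, the cold culture differed from the control in the synthesis genes by between -0.40 and 0.47. That average spans a climb. From their own start TSL1, PGM2 and UGP1 stood at -1.46, -0.93 and -0.58 at 2 h and at 0.52, 1.16 and 0.36 at 8 h. TPS1 stood at 0.47 ± 0.50, TPS3 at 0.39 ± 0.35, TPS2 at 0.25 ± 0.46, UGP1 at 0.14 ± 0.42, PGM2 at 0.02 ± 0.82 and TSL1 at -0.40 ± 0.93. NTH2 stood at -0.87 ± 0.42, ATH1 at -0.72 ± 0.77 and NTH1 at -0.47 ± 0.58. By limma 0 of the 9 passed, as did 0 of all genes (0%), and 0 of the 9 had an unadjusted p under 0.05, against 1143 of all genes. The intervals were wide, from -1.80 to 0.05 for NTH2 and from -0.62 to 1.55 for TPS1. They were wider still for TSL1 (-2.44 to 1.64) and PGM2 (-1.78 to 1.83), so likeness to the control is not shown.

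In the heat culture the 9 genes lay lower between 2 and 8 h than in the first hour, relative to the control, but none passed the test. TSL1 stood at 13.71, 12.67 and 13.52 at 2, 4 and 8 h, TPS2 at 13.09, 12.86 and 12.76, and NTH1 at 8.56, 8.23 and 7.71. TPS1 had a single low array at 4 h (13.39, between 14.27 and 14.15), as had TSL1. All 9 differences of the later from the early window were negative, from -0.86 ± 0.41 (NTH1) and -0.80 ± 0.32 (TPS2) to -0.08 ± 0.30 (UGP1). By limma 0 of the 9 passed, where 0.147% of all genes did, with TPS2 and 1098 of all genes at an unadjusted p under 0.05. From the starts, with the control subtracted, the 2 to 8 h changes lay between -0.09 ± 0.82 (PGM2) and 0.75 ± 0.93 (TSL1). Of these 0 of the 9 passed, against 0.0551% of all genes, and 0 of the 9 had an unadjusted p under 0.05, against 300 of all genes. Heat minus cold at 2 to 8 h was 1.15 ± 0.93 for TSL1, 1.13 ± 0.42 for NTH2, 1.12 ± 0.58 for NTH1 and 0.96 ± 0.77 for ATH1. The other 5 genes lay between -0.30 and 0.09. Here 0 of the 9 passed by limma, against 6.50% of all genes, and at an unadjusted p under 0.05 NTH2 was counted among 1350 of all genes.

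**Figure D3:**
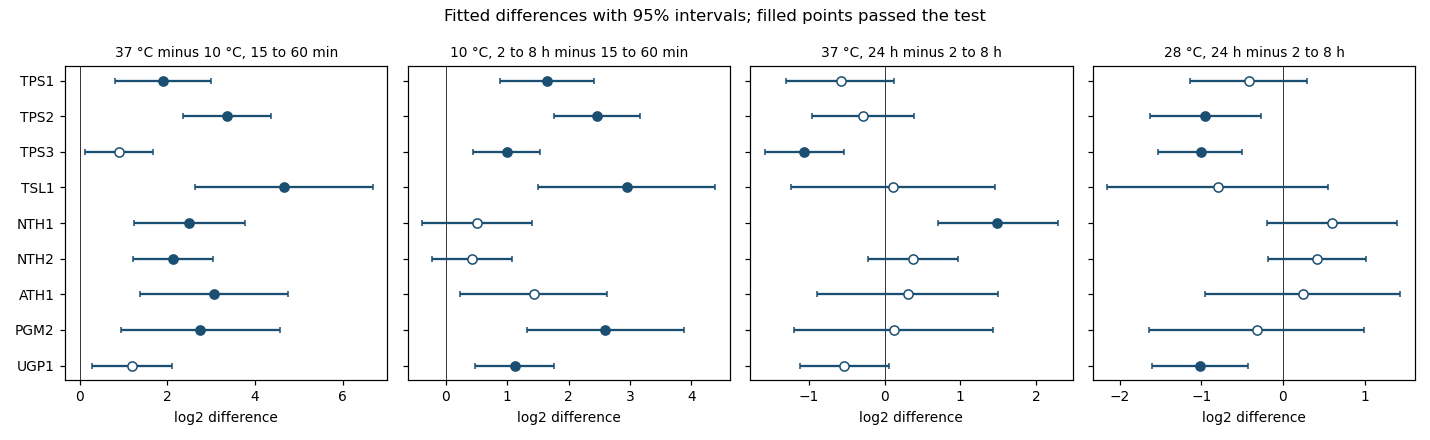
Fitted log2 differences (x axis) of the 9 genes with 95% intervals in 4 comparisons, filled where limma's adjusted p was under 0.05. In the first panel 7 genes passed, in the second 6, in the third TPS3 and NTH1, and in the last TPS2, TPS3 and UGP1.

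At 24 h in the unshifted 28 °C culture the synthase complex genes lay below their start and the trehalase genes above it. UGP1 stood at 12.86 at 24 h, against 13.90, 13.89 and 13.84 at 2, 4 and 8 h. TPS3 stood at 11.68, against 12.63, 12.67 and 12.79, and TPS2 at 12.20, against 12.95, 13.10 and 13.39. In these 3 genes the 24 h array was the lowest of the whole series. NTH1 stood at 13.32, against 12.52, 12.71 and 12.92, and NTH2 at 12.07, against 11.52, 11.62 and 11.81. Both neutral trehalases had their highest control level at 24 h. ATH1 stood at 11.00, against 10.36, 10.68 and 11.22, and so was highest at 8 h. The 3 trehalase genes also lay above their start on the earlier control arrays, though NTH1 by 0.00 after rounding at 2 h.

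The 24 h array is alone in its window and is taken to vary like the other arrays. By limma UGP1 (-1.02 ± 0.28, adjusted p = 0.0055), TPS3 (-1.01 ± 0.24, adjusted p = 0.0023) and TPS2 (-0.95 ± 0.32, adjusted p = 0.019) fell, where 27.3% of all genes were called lower. A share of 3 in 9 is near that background. TSL1 (-0.80 ± 0.64), TPS1 (-0.42 ± 0.34) and PGM2 (-0.32 ± 0.62) did not pass, nor did NTH1 (0.60 ± 0.37), NTH2 (0.42 ± 0.28) and ATH1 (0.24 ± 0.56).

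In the heat culture 1 of the 9 genes fell and 1 rose at 24 h, no larger a share than over all genes. TPS3 stood at 12.60, against 13.71, 13.77 and 13.52 at 2, 4 and 8 h, and fell by 1.06 ± 0.24 (limma adjusted p = 0.0029, where 21.7% of all genes were called lower). NTH1 stood at 9.66, against 8.56, 8.23 and 7.71, and rose by 1.49 ± 0.37 (adjusted p = 0.0052, where 18.2% were called higher). The other 7 genes did not pass, between -0.58 ± 0.34 (TPS1) and 0.38 ± 0.28 (NTH2). The step of TPS3 in heat differed from that in the control by -0.05 ± 0.35.

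In the cold culture all 9 genes were higher at 24 h than on average at 2 to 8 h, between 0.38 ± 0.34 (TPS1) and 0.95 ± 0.56 (ATH1), and close to their 8 h levels. By limma 0 of the 9 passed, against 2.17% of all genes, and 0 of the 9 had an unadjusted p under 0.05, against 1048 of all genes. The 24 h step was then compared between cultures, a comparison chosen after the values were seen. For UGP1, TPS3 and TPS2 the cold steps were 0.40, 0.40 and 0.39, and the control steps -1.02, -1.01 and -0.95. The cold step exceeded that of the control by 1.42 ± 0.39 for UGP1 (limma adjusted p = 0.010), 1.41 ± 0.35 for TPS3 (0.0049) and 1.34 ± 0.45 for TPS2 (0.029), where 19.6% of all genes were called higher. TPS2 did not pass without the arrays at 15 min (adjusted p = 0.055) or 4 h (0.051). For the heat step against the control step 0 of the 9 passed, against 17.4% of all genes, and 0 of the 9 had an unadjusted p under 0.05. The difference for NTH1 was 0.89 ± 0.53 there. For the cold step against the control step, 3 of 9 is not far from the share over all genes. Optical density at 24 h is not among the values used here, so culture age and growth stage cannot be told apart from temperature at that time.

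Taken as groups, the synthase complex and the trehalases lay on the same side of their start in the first hour of heat and of cold. They lay with all their genes on opposite sides at 4 h in the cold and at 24 h in the control. At 37 °C the median change from the start was 1.00, 1.27 and 1.10 for the 4 synthase complex genes at 15, 30 and 60 min, and 0.82, 1.54 and 1.63 for the 3 trehalase genes. At 10 °C it was -1.35, -1.81 and -1.36 for the complex and -0.95, -1.18 and -1.31 for the trehalases. At 2, 4 and 8 h in the cold the complex stood at -0.07, 0.65 and 0.88, and the trehalases at -1.05, -0.25 and 0.02. At 4 h all 4 synthase genes were above their start and all 3 trehalase genes below it. On that single array TSL1 (0.12) and ATH1 (-0.07) were close to 0. At 8 h ATH1 (0.79) stood above TSL1 (0.52), so the groups overlapped again. At 24 h in the control the complex stood at -0.68 and the trehalases at 0.79, with all 4 genes of the complex below the start and all 3 trehalase genes above it. At 2, 4 and 8 h in heat the complex stood at 0.74, 0.25 and 0.51 and the trehalases at 1.03, 0.74 and 0.40, and at 24 h they stood at 0.04 and 1.10. At 4 and 8 h in the control the complex stood at 0.11 and 0.23 and the trehalases at 0.19 and 0.40. Small splits occurred earlier in the control too. At 1 h the medians were 0.14 and 0.24, and the genes of the groups did not overlap. At 2 h the medians were -0.0 and 0.07, with 1 of the 4 genes of the complex above its start. The median of all 5449 genes stayed between -0.07 and 0.04 on all 21 later arrays. These group values are descriptions of 4 and 3 genes, with no test.

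**Figure D4:**
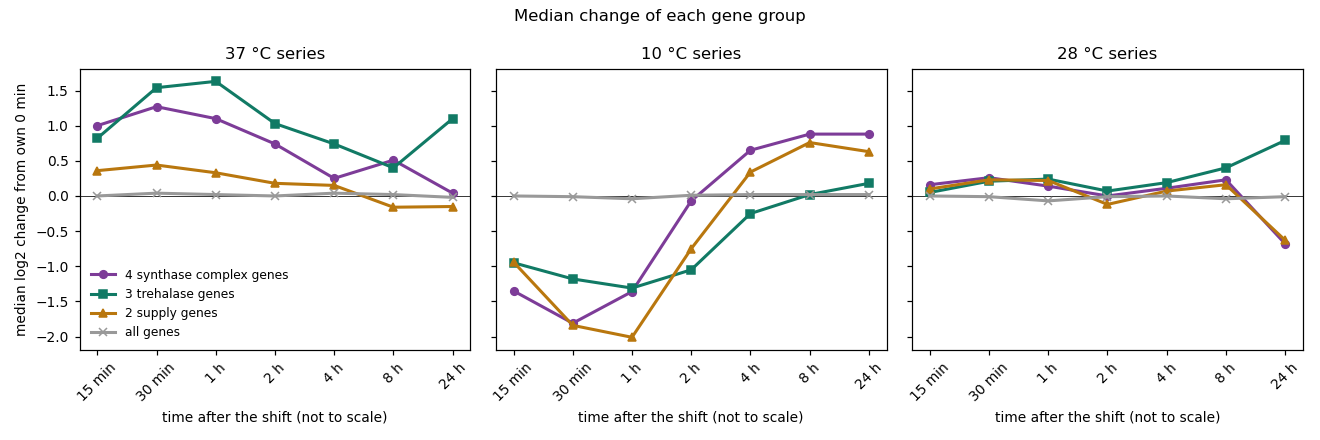
Median log2 change from the own 0 min array (y axis) for the 4 synthase complex genes, the 3 trehalase genes, the 2 supply genes and all 5449 genes, by time (x axis, not to scale), with 1 panel per series. In the 10 °C series the complex is at 0.65 and the trehalases at -0.25 at 4 h, and in the 28 °C series they are at -0.68 and 0.79 at 24 h.

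Over all later arrays together the courses of the genes did not divide by role. Over the 7 later control arrays they did, where the 24 h array stood apart from the others. Over the 21 later arrays, whose changes within a series share 1 starting array, TPS1 correlated with TPS2 at r = 0.933 and with TSL1 at 0.864. NTH1 correlated with its paralog NTH2 at 0.920, and NTH2 with ATH1 at 0.933. TPS1 correlated with NTH1 at only 0.50, and TPS3 with NTH1 at 0.066. Within the 7 later cold arrays the value for TPS1 and NTH1 was 0.94, within heat 0.02 and within the control -0.68. Within the 7 later control arrays r ran from 0.96 to 0.99 in the complex and from 0.74 to 0.99 among the trehalases. Between a gene of the complex and a trehalase gene it ran there from -0.81 (TPS3 and NTH1) to -0.03 (TPS2 and ATH1). Over the 21 arrays TSL1 followed the trehalase ATH1 (0.940) as closely as its partner TPS2 (0.940), and its paralog TPS3 less (0.556). Within single series this order varied. For ATH1, TPS2 and TPS3 the values were 0.70, 0.74 and 0.24 in heat, 0.97, 0.95 and 0.99 in cold, and -0.14, 0.97 and 0.97 in the control. TPS2 followed ATH1 (0.861) and NTH2 (0.723) at least as closely as TPS3 (0.718), and TPS1 followed ATH1 at 0.753 and TPS3 at 0.808. TPS3 ran closest to UGP1 (0.889). These correlations are descriptions, with no p. NTH1 and NTH2, and TSL1 and TPS3, are paralogs, and whether their probe sets share signal was not tested.

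Among the other genes of the pathway are those of the glycogen branch, which draws on the same UDP-glucose. In heat minus cold in the first hour 4 of 7 were called higher and 0 lower by limma, where 7.82% of all genes were called higher. GSY1, a glycogen synthase, stood at 4.20 ± 0.84, the branching enzyme GLC3 at 3.35 ± 0.74 and the glycogen primer GLG1 at 2.29 ± 0.41. In the cold, at 2 to 8 h relative to the first hour, 4 of 7 rose and 0 fell, where 13.2% of all genes were called higher, with GLC3 at 3.57 ± 0.52, GSY1 at 3.55 ± 0.59 and GLG1 at 2.01 ± 0.29. Of 6 hexose phosphate genes, 1 was called higher and 0 lower in heat minus cold early, namely the glucokinase GLK1 (3.06 ± 0.79), a share of few genes that is not far from that over all genes. In the cold 2 rose later, GLK1 (1.78 ± 0.56) and the hexokinase HXK1 (1.72 ± 0.46). PGM1, the minor phosphoglucomutase, had no such course. In heat minus cold early PGM1 stood at -0.77 ± 0.30 (limma adjusted p = 0.102), against 2.75 ± 0.82 for PGM2, and at 24 h in the control it fell by 2.90 ± 0.30 (adjusted p = 9.3e-07).

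The list of trehalase control, uptake and stress activators was analysed for 10 genes. In heat minus cold early 4 were called higher and 1 lower, against 7.82% of all genes called higher, with DCS2 at 4.20 ± 0.81, TPK2 at 1.82 ± 0.35 and TPK3 at -1.40 ± 0.30. The share of all genes called lower is not given here. TPK2 and TPK3 encode catalytic subunits of protein kinase A, the kinase that activates Nth1. In the cold 7 of the 10 rose and 0 fell at 2 to 8 h relative to the first hour, where 13.2% of all genes were called higher. Among them were the maltose and trehalose transporter MAL11 (2.07 ± 0.33), TPK2 (1.65 ± 0.25) and the stress activator MSN4 (1.25 ± 0.20). At 24 h in the control, on a lone array, MAL11 rose by 4.27 ± 0.36 and MSN4 by 2.23 ± 0.21. BMH1, a 14-3-3 protein that binds Nth1, fell there by 0.90 ± 0.15. Steps down were common in that comparison, where 27.3% of all genes were called lower, and the share called higher is not given here.

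The genes outside the 9 with the most similar courses were found by Pearson's r of the change from the own start over the 21 later arrays. For TPS1 they were GGA1 (r = 0.952), LDH1 (0.946) and FRT2 (0.944). For NTH1 they were the disaggregase HSP104 (0.957), RVS161 (0.950) and OPI10 (0.944). For ATH1 they were YTP1 (0.979), GPM2 (0.974) and YPR127W (0.964).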

How the data were processed

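The deposited log2 levels, 1 per probe set and array, are the authors' RMA summaries (per the submitters' processing notes). Neither a version of RMA nor the set of arrays summarised jointly is stated there. RMA makes array distributions alike and compresses differences of dim probe sets. Of 10928 probe sets, 5498 have 1 S. cerevisiae gene in the platform annotation, and probe sets of 1 gene were averaged, which gave 5449 genes. Symbols and locus tags came from a RefSeq table of assembly R64. The dim bound of 6.53 is the 95th percentile of the mean levels of 1746 probe sets whose annotated gene is not in that table.

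All 24 arrays and 5449 genes entered models in limma 3.58.1 (R 4.3.3). Comparisons against the control, between heat and cold and between windows used time as a block and a heat and a cold term for 0 min, 15 to 60 min, 2 to 8 h and 24 h (8 residual degrees of freedom). The 24 h comparisons used means of series by window (12). P-values were adjusted by Benjamini-Hochberg over all genes, with a threshold of 0.05. Comparisons of heat and of cold with the control share the control arrays. The number of arrays limits the precision. The fits were tested on simulated data. Alternatives left out the 0 min arrays, the control, the time block, dim genes or each time in turn, pooled the late windows, or repeated quantile normalization. The 9 genes and the lists were chosen with earlier results of these data known. The rule for other named genes takes the 3 members of a list with the smallest p, and the 3 genes most like TPS1, NTH1 and ATH1.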

Additional observations from a re-analysis of the deposited data

Results flagged for a closer look

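The response to heat differed from that to cold in the first hour, by a test of the difference itself, in 7 of the 9 genes, where 7.82% of all genes were called higher. The log2 differences, heat minus cold, were 4.66 for TSL1, 3.36 for TPS2, 3.06 for ATH1, 2.75 for PGM2, 2.50 for NTH1, 2.13 for NTH2 and 1.90 for TPS1. All 3 heat arrays lay above, and all 3 cold arrays below, their own start in each of them. The 3 control arrays of those times also lay above their own start in these genes, by less than the heat arrays. The step from 2 to 8 h to 24 h differed between cold and control, cold minus control, by 1.42 for UGP1, 1.41 for TPS3 and 1.34 for TPS2, where 19.6% of all genes were called higher. That comparison was chosen after the values were seen, and 3 of 9 is not far from that share of all genes. The control steps of UGP1, TPS3 and TPS2 were -1.02, -1.01 and -0.95, and their cold steps 0.40, 0.40 and 0.39. The amplification kit differed between heat and cold but not between cold and control, and its part in the first set of differences was not tested. No group had the 4 arrays that a search for outlying arrays needs.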

How the results depend on the processing

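Values below are counts of the 9 genes passing limma's test, or log2 differences. Where no share over all genes is given beside a count, the count does not set the 9 genes apart from other genes. Where the 0 min arrays were left out of account, 7 genes passed in early heat, 4 in heat at 2 to 8 h, 9 in early cold, 2 in cold at 2 to 8 h and 5 in heat against cold at 2 to 8 h. In early cold 16.5% of all genes were then called lower. On the 0 min arrays 44.0% of all genes differed at least 2-fold between heat and control, and 0.6% between cold and control. Without the 0 min arrays the sign turned for NTH1 in early heat (-3.69) and in early heat against cold (-2.60). It turned in heat at 2 to 8 h for NTH1 (-4.55), TPS2 (-0.25), TSL1 (-0.07) and PGM2 (0.97), and in cold at 2 to 8 h for PGM2 (-0.14). It turned in heat against cold at 2 to 8 h for NTH1 (-3.97), TPS2 (-0.41), TPS3 (0.72), PGM2 (1.10) and UGP1 (0.45). The construction shows the cause, since the starting difference is then part of the value. With changes taken from the own 0 min array alone, 3 genes passed in early heat and 2 in early cold, and the sign turned at 2 to 8 h for PGM2 (0.14) and UGP1 (-0.03) in heat and UGP1 (-0.02) in cold. With the late window pooled over 2 to 24 h it turned for PGM2 in heat (0.02), TSL1 in cold (0.02), TPS2 in heat against cold (-0.07) and UGP1 in heat, late against early (0.05). A repeated quantile normalization turned UGP1 in heat against cold at 2 to 8 h (0.01). For these 3 settings the cause was not tested.

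With each time left out in turn, 0 to 1 genes passed in early cold, 1 to 8 in early heat against cold, 1 to 7 in cold at 2 to 8 h against early, and 0 to 1 in cold at 24 h. The arrays at 30 min set both low ends of 1. Signs turned in heat at 2 to 8 h for ATH1 (-0.07 to 0.57) and PGM2 (-0.30 to 0.13), and in cold at 2 to 8 h for TSL1 (-0.72 to 0.13), PGM2 (-0.29 to 0.44) and UGP1 (-0.07 to 0.43). They turned in heat against cold at 2 to 8 h for TPS1 (-0.67 to 0.15), TPS2 (-0.32 to 0.38), PGM2 (-0.74 to 0.41) and UGP1 (-0.37 to 0.32). They turned for UGP1 in heat, late against early (-0.14 to 0.04), and for TSL1 in heat at 24 h (-0.21 to 0.32). At 24 h, 2 to 3 genes passed in heat, and 3 in the control culture, when each time from 15 min to 8 h was left out. For the 24 h step against that of the control, signs turned in heat for TPS1 (-0.44 to 0.06), TPS3 (-0.17 to 0.01), NTH2 (-0.23 to 0.10) and ATH1 (-0.27 to 0.38), and in cold for NTH2 (-0.03 to 0.20). Array weights were not run, because their estimate did not converge with windows of 1 array. Arrays were matched by time in the fits with a time block, and without it 7 genes again passed in early heat against cold and 6 in cold at 2 to 8 h against early. Signal over background limits NTH1 in the heat series.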

Other observations

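For the 6 genes not covered by the rule on similar courses, the closest genes outside the 9 were looked up as well, a step taken after the values were seen. The course of PGM2 was closest to that of the glycogen synthase gene GSY2 (r = 0.981 over the 21 later arrays), followed by DCS2 (0.941) and the cytosolic catalase gene CTT1 (0.935). TSL1 ran closest to DCS2 (0.966), to CYR1, the adenylate cyclase gene (0.954), and to PNC1, a nicotinamidase gene (0.950). TPS2 ran closest to GGA1 (0.983) and TPK2 (0.978). TPS3 ran closest to RRI1 (0.949), NTH2 to YER053C-A (0.960) and UGP1 to MSC1 (0.967). These are descriptions with no p, and changes within a series share its 0 min array.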
